A study of Mus musculus with 4 samples.

Results

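The subunit genes of the AMPA and NMDA receptors, the ion channels that carry most fast excitatory transmission in the forebrain, were followed through nuclei of the mouse brain after a permanent stroke. The set held 10 of the 46983 genes in the count tables and was chosen by gene family: Gria1, Gria2, Gria3 and Gria4 for the AMPA receptor, and Grin1, Grin2a, Grin2b, Grin2c, Grin2d and Grin3a for the NMDA receptor. All 10 were found. Gria1, Gria2, Gria3, Gria4, Grin1, Grin2a and Grin2b were the broad neuronal members. Grin2c was highest in astrocytes, and Grin3a was highest in 1 interneuron cluster and in oligodendrocyte precursors.

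The nuclei came from forebrain hemispheres of 3-month-old male C57Black/6 mice. In these animals the middle cerebral artery was coagulated and cut under isoflurane (MCAO), which gives a small infarct in the parietal cortex, and tissue was taken 1 day, 3 days or 7 days later. The comparison library was labelled sham control. Each of the 4 groups was a single library of 3 pooled hemispheres, so no value below has a replicate check, no test was possible, and the day and the library cannot be told apart. The intervals given are exact 95% intervals that cover counting error only.

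The labels hold 2 points that bear on every comparison. The protocol text names intact cortex as control tissue whereas the extraction text describes hemispheres, and 342 nuclei of the sham library were striatal projection neuron-like, a cell type of the striatum and not of cortex. Nuclei per time point as the study lists them matched the deposited libraries only with day 3 and day 7 exchanged, and the deposited labels were kept. In microglia-like nuclei Apoe, Spp1, Gpnmb and Lgals3, genes of reactive microglia chosen here after their values were seen, were highest in the library labelled day 3. Gpnmb had 0, 1, 114 and 11 UMIs and Apoe 408, 179, 2962 and 2223 counts per 1000000 UMIs in the sham, day 1, day 3 and day 7 libraries. Dentate granule-like nuclei, a hippocampal type, numbered 4 in the sham library against 17 to 45 in the others.

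AMPA receptors are tetramers of GluA1 to GluA4, the products of Gria1 to Gria4. GluA2 sets their calcium permeability: RNA editing by the enzyme Adarb1 recodes a glutamine in its pore loop to arginine, and receptors with edited GluA2 pass little calcium. NMDA receptors need the GluN1 subunit of Grin1 together with GluN2 subunits (Grin2a to Grin2d), and they open when glutamate is bound and the membrane is depolarised enough to release a magnesium ion from the pore. GluN2A and GluN2B dominate in the forebrain, GluN2C and GluN2D form channels with weaker magnesium block, and GluN3A of Grin3a lowers calcium flow. In stroke, excess glutamate overactivates these channels.

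The pore loop is the part of these genes in which that difference lies, and it is shown here as coding sequence of 51 bases, 5′ to 3′, from GENCODE transcripts on GRCm38. In the Gria genes the capitals mark the codon of the edited glutamine or its counterpart, and in Grin1 and Grin2a the asparagine codon at the matching place. The stretches of the Gria genes and of Grin1 join 2 exons.
Gria1: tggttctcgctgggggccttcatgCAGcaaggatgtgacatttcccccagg
Gria2: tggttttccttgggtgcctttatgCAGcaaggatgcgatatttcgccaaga
Gria3: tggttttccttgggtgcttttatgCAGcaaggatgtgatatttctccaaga
Gria4: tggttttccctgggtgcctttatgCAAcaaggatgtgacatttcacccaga
Grin1: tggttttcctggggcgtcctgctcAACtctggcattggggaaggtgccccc
Grin2a: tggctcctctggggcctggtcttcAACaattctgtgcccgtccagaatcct
The genome encodes glutamine at this place in all 4 Gria genes, as CAG in 3 of them and CAA in Gria4. Against Gria2, 41 of the 51 bases were identical in Gria1, 48 in Gria3 and 45 in Gria4. The Gria2 codon lies at chr3:80706911-80706913 on the minus strand, in exon 11 of 16. The counts used here do not read this base, so they give the amount of Gria2 RNA and not how much of it was edited.

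The genes were long, and reads in introns were counted, so counts may depend on gene span, and how far they did was not tested. Gria1 (ENSMUSG00000020524.16) spans chr11:57011387-57330244 on the plus strand, Gria2 (ENSMUSG00000033981.14) chr3:80681450-80802835 on the minus strand, Gria3 (ENSMUSG00000001986.16) chrX:41400854-41678601 on the plus strand and Gria4 (ENSMUSG00000025892.15) chr9:4417896-4796234 on the minus strand. Grin1 (ENSMUSG00000026959.13) spans chr2:25291181-25319187, Grin2a (ENSMUSG00000059003.12) chr16:9567898-9995560, Grin2b (ENSMUSG00000030209.14) chr6:135713233-136173511, Grin2c (ENSMUSG00000020734.13) chr11:115249169-115267243, Grin2d (ENSMUSG00000002771.10) chr7:45831883-45878378 and Grin3a (ENSMUSG00000039579.15) chr4:49661611-49845744, all on the minus strand. Some members overlap other genes: Grin1 the antisense RNA Grin1os, Grin2d the gene Kdelr1 on the other strand, Grin2b 3 predicted genes on the other strand, and Grin3a the gene Ppp3r2 on its own strand. The strand setting of the counting is not stated, so reads of Grin1, Grin2b and Grin2d cannot be told apart from those of their partners here.

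After removal of doublets 7775 nuclei were kept: 2114 sham, 1018 at day 1, 3071 at day 3 and 1572 at day 7, with median UMIs (unique molecules) per nucleus from 5463 to 11030. Only 9 barcodes occurred in more than 1 library. Clusters were named from marker genes, and names are given as "-like". The 10 receptor genes were left out of the genes used for clustering. The 7 main classes held 5786 nuclei, among them, in the order sham, day 1, day 3 and day 7, 535, 276, 855 and 418 glutamatergic-like neurons, 342, 125, 357 and 197 striatal projection neuron-like nuclei and 107, 57, 142 and 86 interneuron-like nuclei. Over the libraries the vesicular glutamate transporter Slc17a7 lay between 236 and 267 CPM in glutamatergic-like nuclei and at most at 32.3 CPM in the other 2 neuron classes. Rgs9 lay between 642 and 841 CPM in striatal projection neuron-like nuclei. Gad1 lay between 252 and 310 CPM in interneuron-like and between 116 and 134 CPM in striatal projection neuron-like nuclei. Gad2 overlapped between these classes, 250 to 338 against 229 to 258 CPM. The oligodendrocyte marker Mbp reached 701 CPM in astrocyte-like nuclei, against at least 3560 CPM in oligodendrocyte-like nuclei. CPM means UMIs of a gene per 1000000 UMIs of that class in that library.

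Free RNA in the droplets adds neuronal transcripts to every class. Its expected level was estimated from barcodes of at most 1000 UMIs and is given as the free RNA level. It was estimated to make up 6.8% to 19.9% of UMIs in the 3 neuron classes, 16.3% to 39.7% in astrocyte-like, oligodendrocyte-like and precursor-like nuclei, and 38.7% to 66.1% in microglia-like nuclei. The estimate can be too high where a class itself expresses the genes it rests on, and this was not tested.

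In neurons the AMPA receptor genes differed in order between classes. Glutamatergic-like neurons held Gria2 at 1678, 1722, 1587 and 1803 CPM in the sham, day 1, day 3 and day 7 libraries, and striatal projection neuron-like nuclei held it at 1578, 1592, 1573 and 1674 CPM. Interneuron-like nuclei held less, 1144, 1225, 1021 and 1186 CPM, and each of these was below every value of the other 2 neuron classes.

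The interneurons held most Gria4 and Gria1 instead. Gria4, the subunit of fast AMPA receptors, stood at 1796, 1662, 1800 and 1885 CPM in interneuron-like nuclei, against 1120, 792, 1106 and 955 CPM in glutamatergic-like neurons and 607, 588, 668 and 592 CPM in striatal projection neuron-like nuclei. Gria1, whose product is delivered to synapses in long-term potentiation, stood at 1625, 1704, 1837 and 1960 CPM in interneuron-like nuclei and at 1397, 1613, 1680 and 1740 CPM in striatal projection neuron-like nuclei. Within each library the interneurons were higher, and the intervals touched in none but the day 1 library (1619 to 1793 against 1557 to 1670). Glutamatergic-like neurons had the least Gria1 of the 3, 680 CPM in the sham library. Gria3, the X-linked member, was highest in glutamatergic-like neurons (983 to 1101 CPM), lower in striatal projection neuron-like nuclei (794 to 950 CPM) and lowest in interneuron-like nuclei (578 to 774 CPM).

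Per kilobase of gene span Grin1 and Gria2 led in neurons, a ranking that takes counts to be proportional to span, which was not tested. By CPM Grin1 was the lowest of the broad neuronal members in sham glutamatergic-like neurons, 508 CPM against 680 to 1678 CPM. In sham glutamatergic-like neurons Grin1 had 18.1 CPM per kb and Gria2 13.8, while Grin2a, Gria3, Grin2b, Gria4 and Gria1 lay between 2.13 and 3.61. In sham interneuron-like nuclei the order was Grin1 at 13.8 CPM per kb, Gria2 at 9.43, Gria1 at 5.10 and Gria4 at 4.75. These are levels of nuclear RNA, introns included, and not proportions of protein.

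**Figure D1:**
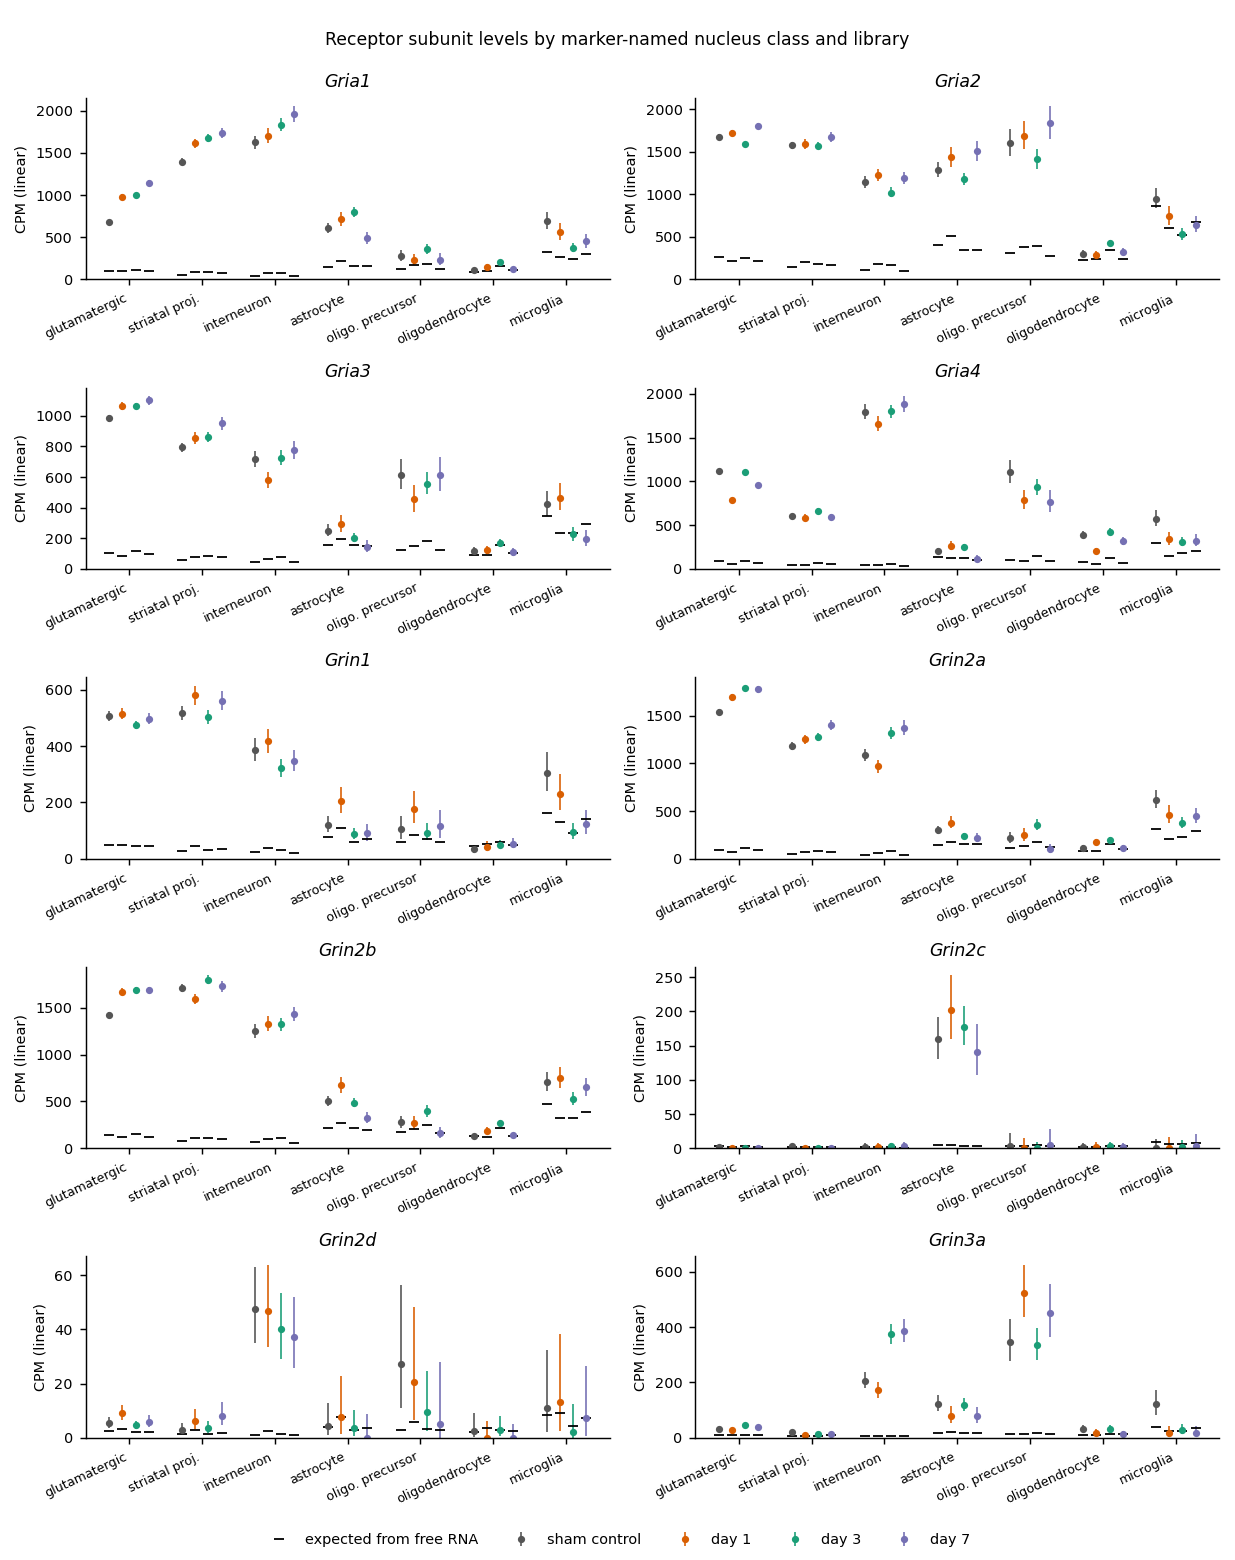
Level of each of the 10 genes in CPM (linear y axis, 1 panel a gene) in the 7 marker-named classes, with 1 point a library and exact Poisson 95% intervals for counting error, and black dashes at the level that free RNA would give. Gria2 stands between 1021 and 1838 CPM in neurons, astrocyte-like and precursor-like nuclei, Grin2c stands clear of free RNA in astrocyte-like nuclei alone among the 7 classes, and Grin3a is highest in precursor-like and interneuron-like nuclei.

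The share of Gria2 among the UMIs of the 4 Gria genes compares classes without the effect of gene span. It was 37.6% (37.0% to 38.2%) in sham glutamatergic-like neurons, 36.1% (35.3% to 36.8%) in sham striatal projection neuron-like nuclei and 21.7% (20.6% to 22.8%) in sham interneuron-like nuclei. The share of interneurons stayed lowest of the 3 neuron classes in each library, at 23.7%, 19.0% and 20.4% on days 1, 3 and 7, against 33.3% to 37.8% in glutamatergic-like neurons and 32.9% to 34.3% in striatal projection neuron-like nuclei. In sham interneurons the other UMIs were 34.0% Gria4, 30.8% Gria1 and 13.5% Gria3. With free RNA subtracted the sham share was 20.4% in interneuron-like nuclei, 16.5% in oligodendrocyte-like and 11.1% in microglia-like nuclei, so interneurons were not the lowest of all 7 classes there.

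The low share belonged to 1 of the 2 groups of interneurons. Lhx6 interneuron-like nuclei, the group that holds the Sst and Pvalb cells, had 19.3%, 19.3%, 16.7% and 19.5% Gria2, and Adarb2 interneuron-like nuclei, which include the Vip cells, had 34.9%, 33.7%, 29.6% and 30.7%, with intervals apart in every library. Among the glutamatergic-like neurons placed in a cortical layer the share was lowest in upper-layer nuclei in each library, 37.3%, 35.7%, 33.5% and 31.1%. Glutamatergic-like nuclei not placed in a layer (240, 126, 404 and 230) had 34.3%, 37.2%, 30.6% and 35.0%. They were under upper-layer nuclei in sham and at day 3 and above them at days 1 and 7. Middle-layer nuclei had 40.9%, 43.2%, 39.8% and 47.3% and deep-layer nuclei 43.9%, 39.6%, 38.2% and 40.6%, so that the order of these 2 in sham was not that of the other libraries. Sham middle-layer nuclei had 38.0% Gria4 and 11.1% Gria3, against 14.4% and 27.3% in deep-layer and 21.3% and 26.2% in upper-layer nuclei. Day 3 gave the lowest share of the 4 libraries in all 3 main neuron classes.

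**Figure D2:**
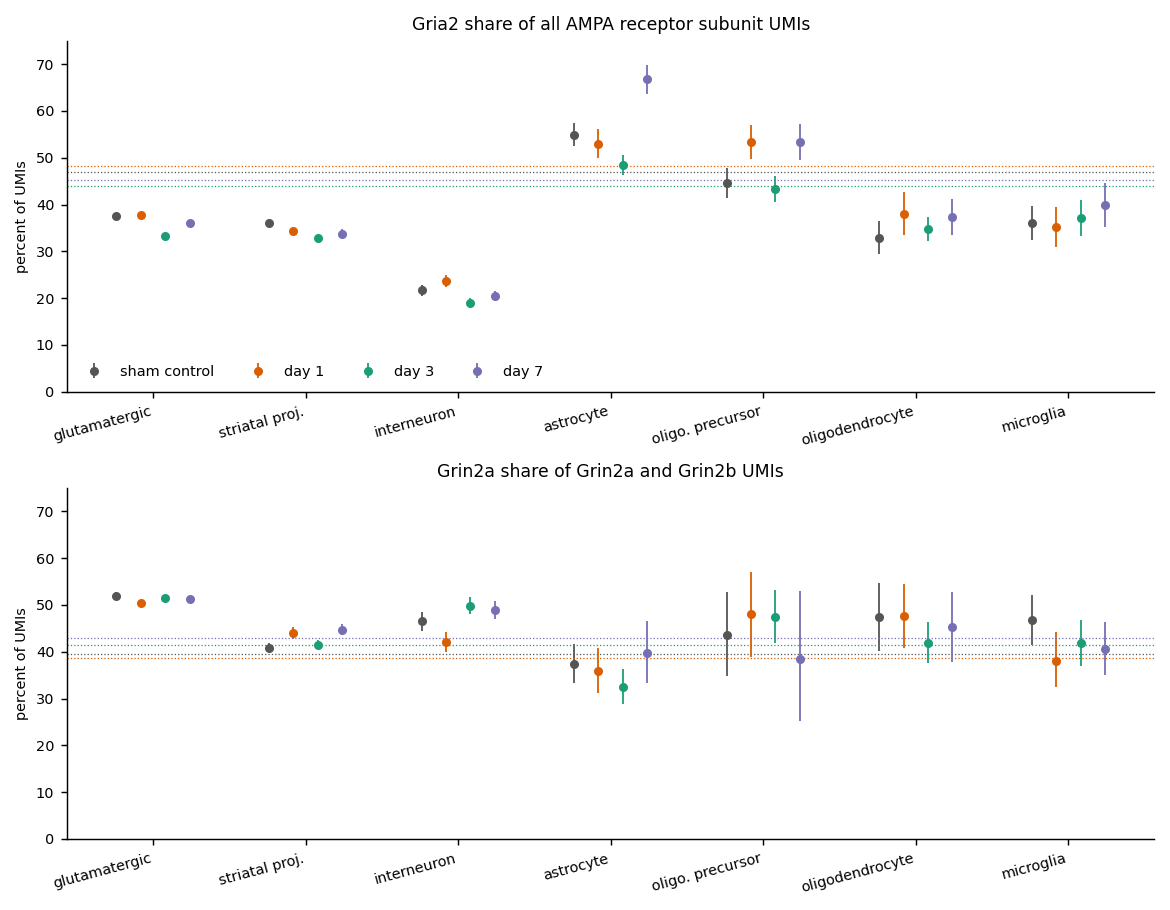
Share of Gria2 among the UMIs of Gria1 to Gria4, and share of Grin2a among the UMIs of Grin2a and Grin2b, in percent by class and library, with exact Clopper-Pearson 95% intervals and dotted lines at the share in free RNA. The Gria2 share of interneuron-like nuclei lies between 19.0% and 23.7% and under the other 6 classes drawn, an order that does not hold with free RNA subtracted, and astrocyte-like nuclei at day 7 hold the highest of them at 66.8%.

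Of the NMDA receptor genes Grin1, Grin2a and Grin2b were abundant in all 3 neuron classes. The obligatory subunit gene Grin1 stood between 475 and 515 CPM in glutamatergic-like neurons, between 504 and 581 CPM in striatal projection neuron-like nuclei and between 321 and 417 CPM in interneuron-like nuclei. Grin2a was highest in glutamatergic-like neurons (1544, 1694, 1788 and 1777 CPM), and Grin2b stood at 1426, 1672, 1692 and 1689 CPM there and at 1709, 1594, 1801 and 1729 CPM in striatal projection neuron-like nuclei, with overlapping intervals at days 1 and 7. The Grin2a share of the UMIs of Grin2a and Grin2b was 52.0% (51.3% to 52.7%) in sham glutamatergic-like neurons, 40.9% (39.9% to 41.9%) in striatal projection neuron-like nuclei and 46.5% (44.5% to 48.6%) in interneuron-like nuclei. Middle-layer cortical nuclei had the highest share of the cortical layers in all 4 libraries, 59.1% to 63.4%.

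Grin2d and Grin3a were highest in interneuron-like nuclei among the 3 main neuron classes, and lowest, in sham, in striatal projection neuron-like nuclei. Grin2d, known from interneurons, stood at 47.4, 46.9, 40.0 and 37.2 CPM in interneuron-like nuclei and at most at 9.08 CPM in the other 2 neuron classes. Grin3a stood at 207, 172, 374 and 387 CPM in interneuron-like nuclei, at 30.3 to 45.7 CPM in glutamatergic-like neurons and at 11.8 to 22.1 CPM in striatal projection neuron-like nuclei, where free RNA alone would give 6.52 to 9.19 CPM. Grin2c was at or under 3.29 CPM in all 3 classes, and in each library its interval held the free RNA level or lay under it.

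Against sham, a call asked for at least 20 UMIs over both libraries, a ratio of CPM of at least 1.5 in either direction and a counting interval that left out 1. Over the 7 classes and 3 days, 181 of 210 combinations had enough UMIs, and 12 were higher and 26 lower than sham. That is 21.0% of the combinations, against 8.78% of all genes over the same comparisons, and 14 of the 26 lower calls were in microglia-like nuclei. Outside that class 24 of 157 were called, 15.3% against 8.01% of all genes. Over all 7 classes 16 were called with the mean over nuclei of UMI fractions and 11 with nuclei thinned to 1000 UMIs, in place of 38. The share of all genes called under those settings is not given here, so the excess is not shown to hold under them. Since there was 1 library a group, a call describes 2 libraries and is no test of the injury.

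In glutamatergic-like neurons 1 of 9 members was called at day 1, where 8.27% of all 13889 genes were called, 0 of 10 at day 3, where 5.51% were, and 1 of 9 at day 7, where 8.25% were. The day 7 call was Gria1. Its levels were 680, 981, 1005 and 1148 CPM in the sham, day 1, day 3 and day 7 libraries, and all 3 injured libraries lay above sham. The ratios to sham were 1.44 (1.39 to 1.5), 1.48 (1.42 to 1.53) and 1.69 (1.62 to 1.76). With nuclei thinned to 1000 UMIs the day 7 log2 ratio was 0.53 in place of 0.76, which is under 1.5-fold.

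Gria1 was higher within clusters as well. It was above sham in 6 of the 7 glutamatergic clusters at day 1 and in 7 of 7 at days 3 and 7, with ratios from 1.04 to 1.88 at day 7. With the clusters weighted as in the sham library, an alternative chosen after the data were seen, the ratios were 1.40, 1.45 and 1.59. The cluster that was lower at day 1 held 4 nuclei in that library. Deep-layer nuclei went from 664 to 1117, 984 and 1090 CPM, upper-layer nuclei from 727 to 864, 964 and 1166 CPM, and middle-layer nuclei from 397 to 487, 514 and 452 CPM.

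The other abundant members of these neurons stayed within 1.5-fold. Gria4 was 0.708 (0.681 to 0.735) times sham at day 1, lower in 6 of 7 clusters, 0.988 at day 3 and 0.853 at day 7. Grin2b was 1.17, 1.19 and 1.18 times sham and Grin2a 1.10, 1.16 and 1.15 times. Gria2 (1.03, 0.946 and 1.07) and Grin1 (1.01, 0.936 and 0.981) stayed closest to sham. The day 1 call was Grin2d at 9.08 against 5.50 CPM (1.65, 1.04 to 2.65), which rested on 47 and 34 UMIs and turned to a log2 ratio of -0.63 in thinned nuclei. The median log2 ratio of the members tested was 0.11, 0.05 and 0.16 on the 3 days, and that of all genes 0.03, -0.04 and -0.06.

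In striatal projection neuron-like nuclei 1, 1 and 2 of 9 members were called on days 1, 3 and 7, against 7.14%, 5.61% and 6.67% of all genes. Gria1 was 1.15, 1.20 and 1.25 times sham, which is under the size asked for, with intervals from 1.10 to 1.30 in all. Gria2 was 1.01, 0.997 and 1.06 times sham, Grin1 1.12, 0.973 and 1.08 times and Grin2b 0.933, 1.05 and 1.01 times. The calls fell on Grin3a and Grin2d, which are rare in these nuclei, while the rarest, Grin2c, had too few UMIs. Grin3a was lower on all 3 days, 11.8, 14.6 and 13.6 CPM against 22.1 CPM, on 23, 46 and 28 UMIs against 74, and at days 1 and 7 its interval held the free RNA level. Of the 74 sham UMIs 31.1% lay in 1 of 342 nuclei. With the nucleus richest in each gene left out 0, 0 and 1 members were called on days 1, 3 and 7. The day 3 call turned to a log2 ratio of 0.13 with the mean over nuclei of their UMI fractions, and 0 members were called on any day in thinned nuclei. Grin2d was higher at day 7, 8.24 against 2.99 CPM, on 17 and 10 UMIs.

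**Figure D3:**
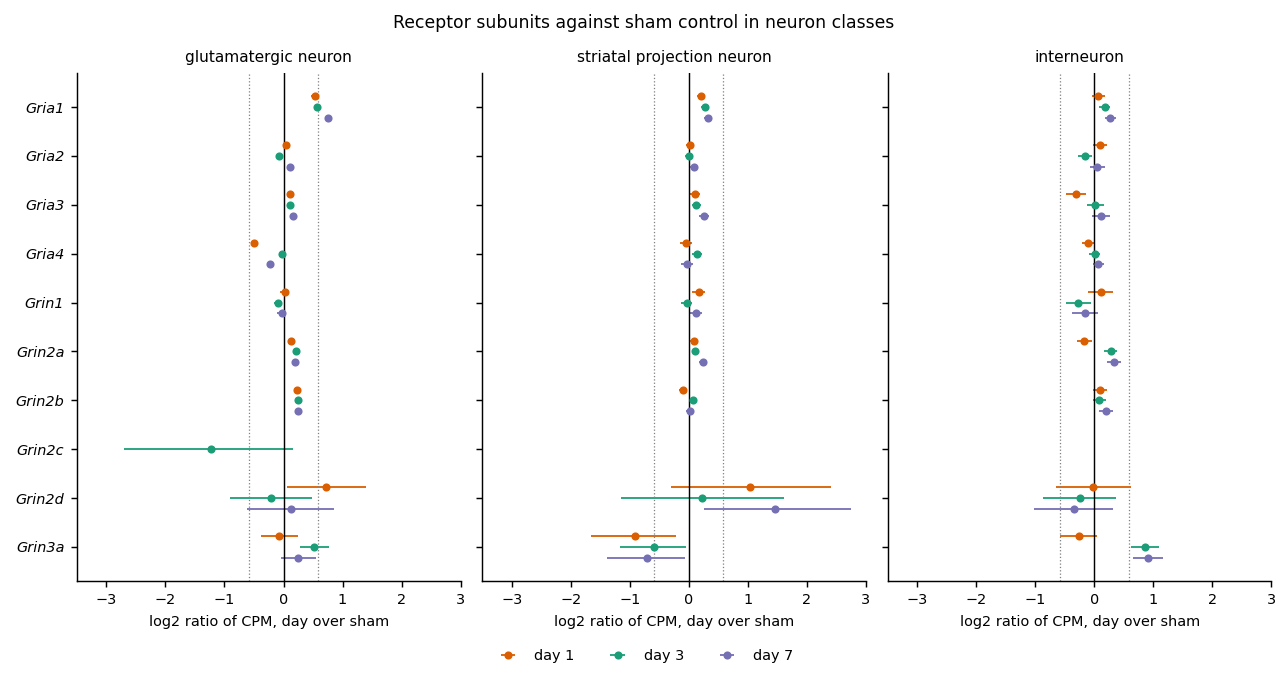
Log2 ratio of CPM of each day over sham (x axis) for each member in the 3 main neuron classes, with exact 95% counting intervals and dotted lines at 1.5-fold in either direction, members under 20 UMIs left out. Gria1 lies right of 0 on all 3 days in glutamatergic-like and striatal projection neuron-like nuclei, and Grin3a lies to the right in interneuron-like nuclei at days 3 and 7 and to the left in striatal projection neuron-like nuclei.

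In interneuron-like nuclei 0, 1 and 1 of 9 members were called, against 7%, 6.04% and 7.64% of all genes, and the call was Grin3a on both days. Grin3a was 0.83 times sham at day 1, 1.81 times (1.53 to 2.15) at day 3 and 1.87 times (1.57 to 2.23) at day 7. These UMIs came mainly from 1 cluster, whose leading genes were Sst, Npy and Nos1 and which held 24, 11, 39 and 23 nuclei. There Grin3a stood at 628, 600, 953 and 1135 CPM, while the other Lhx6 cluster had 39.3 to 68.0 CPM and the Adarb2 cluster 114 to 166 CPM.

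The makeup of the class moved together with Grin3a. With the 3 clusters weighted as in the sham library the ratio was 1.25 at day 3 and 1.54 at day 7, so that the day 3 value no longer reached 1.5. In thinned nuclei, and with the mean over nuclei, neither day gave a call. Only 1 of 3 clusters was above sham at day 3, and 3 of 3 were at day 7. Among the other members Gria1 was 1.05, 1.13 and 1.21 times sham, Grin2a 0.889, 1.21 and 1.26 times and Gria4 0.925, 1.00 and 1.05 times. Grin2a in Adarb2 interneuron-like nuclei stood at 992, 984, 1695 and 2199 CPM, on 32, 24, 50 and 20 nuclei.

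**Figure D4:**
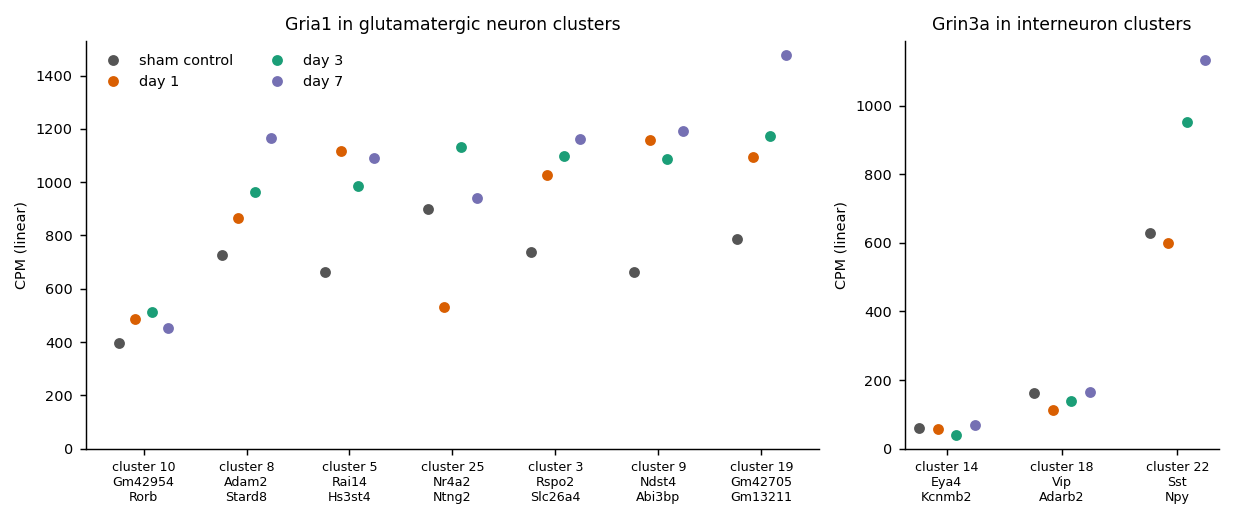
Gria1 in CPM (linear y axis) in each of the 7 glutamatergic clusters and Grin3a in each of the 3 interneuron clusters, by library, with no intervals drawn. Gria1 is above its own sham value in 7 of 7 clusters at days 3 and 7, and Grin3a is high in the Sst, Npy and Nos1 cluster alone, from 600 to 1135 CPM.

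Neurons outside these classes broadened the range. Subcortical Slc17a6 neuron-like nuclei (37, 24, 58 and 50), a group that includes thalamic relay cells, had Gria4 as their leading AMPA gene at 1387, 1273, 1345 and 1200 CPM and a Gria2 share of 21.1% to 26.8%. Their Gria3 stood at 354, 542, 576 and 613 CPM, with ratios to sham of 1.53 (1.24 to 1.89), 1.63 (1.34 to 1.99) and 1.73 (1.42 to 2.13), and their Grin2a at 753, 1205, 1047 and 1221 CPM, with ratios of 1.60, 1.39 and 1.62. In this class 4, 3 and 3 of 10 members were called on days 1, 3 and 7, against 9.66%, 8.24% and 8.22% of all genes, and the alternatives were not run for it. The calls were Gria3 and Grin2c, higher on all 3 days, Grin2a, higher at days 1 and 7, and Grin3a, lower at days 1 and 3. They were also the neurons with most Grin2c, 20.4, 63.8, 50.3 and 48.4 CPM, although the sham value rested on 8 UMIs. Their Grin3a was 239, 144, 148 and 194 CPM, and their Grin2d 68.7, 41.2, 40.9 and 53.8 CPM, so Grin2d was no lower there than in interneuron-like nuclei in the sham, day 3 and day 7 libraries. Dentate granule-like nuclei had Gria4 at 182 to 285 CPM and Gria1 at 3092, 3736 and 3229 CPM on days 1, 3 and 7, beside 3196, 2640 and 2470 CPM of Gria1 in the Lhx6 cluster led by Sst, Npy and Nos1. The sham values of dentate nuclei rest on 4 nuclei. The class of other GABAergic neurons, led by Baiap3, Zim1 and Glra3, had Gria4 above Gria1, 1262 to 1332 against 881 to 1070 CPM, and a Grin2a share of 29.2% to 37.5%.

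Astrocyte-like nuclei (147, 55, 216 and 68) had the intervals of Gria1, Gria2, Grin2a, Grin2b, Grin2c and Grin3a above the free RNA level in all 4 libraries. With the nucleus richest in each gene left out this held for 5 of the 6, and the day 7 interval of Grin2a held the free RNA level, 136 against 149 CPM. Gria2 stood at 1288, 1435, 1179 and 1508 CPM against free RNA levels of 343 to 506 CPM, and Gria1 at 605, 714, 798 and 487 CPM against 152 to 220 CPM. At day 3, 44.9% of the Gria1 UMIs and 54.0% of the Gria4 UMIs lay in 1 of 216 nuclei. With the richest nucleus left out of each library Gria1 was 562, 581, 440 and 441 CPM, so the high day 3 value rested on 1 nucleus. Grin2c stood at 159, 202, 178 and 141 CPM against 3.84 to 4.63 CPM, and Grin3a at 124, 80.5, 119 and 80.0 CPM against 16.0 to 21.0 CPM. Per kilobase the sham values were 10.6 CPM for Gria2, 8.81 for Grin2c, 4.32 for Grin1 and 1.90 for Gria1. The Gria2 share, 54.9%, 53.0%, 48.5% and 66.8%, was higher than in each of the 3 main neuron classes in each library. With the nucleus richest in each gene left out it was 57.0%, 57.6%, 62.2% and 69.3%, and day 3 was no longer the lowest. The share in free RNA itself was 44.0% to 48.2%.

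Of 9 astrocyte members 2, 0 and 4 were called on days 1, 3 and 7, against 10.5%, 9.98% and 11.4% of all genes. At day 7 Gria3, Gria4, Grin2b and Grin3a were lower than sham, at 0.58, 0.576, 0.651 and 0.646 times, and the intervals of Gria3 and Gria4 then held the free RNA level. With libraries merged and not integrated 0 members were called at day 7, and in thinned nuclei Grin3a turned to a log2 ratio of 0.11. Gria2 (1.17) and Grin2c (0.883) were not among them. At day 1 Grin1 was higher, 205 against 121 CPM (1.70, 1.23 to 2.34), and Grin3a was lower (0.649, 0.416 to 0.991). The estimated free RNA share was 39.7% at day 1 against 30.7% in sham. With free RNA subtracted the log2 ratio of Grin1 was 1.30 in place of 0.76, and beyond that the part of free RNA was not tested. The median log2 ratio of the 9 members was 0.33, -0.06 and -0.48 on the 3 days, and that of all genes was -0.09, -0.02 and -0.08.

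Oligodendrocyte precursor-like nuclei (57, 35, 96 and 46), which receive synapses from neurons, held Gria2 at levels close to those of glutamatergic-like neurons, and had the highest Grin3a of the 7 classes in all libraries but day 3. As in astrocyte-like nuclei, the intervals of Gria1, Gria2 and Grin3a lay above the free RNA level in all 4 libraries. Gria2 stood at 1604, 1687, 1411 and 1838 CPM and Gria4 at 1104, 788, 936 and 766 CPM. The Gria2 share was 44.6%, 53.4%, 43.3% and 53.3%, beside 54.9%, 53.0%, 48.5% and 66.8% in astrocyte-like nuclei. Gria3 stood at 613, 454, 557 and 611 CPM, while Gria1 was low at 230 to 355 CPM. Grin3a stood at 347, 524, 335 and 451 CPM against free RNA levels of 13.9 to 18.3 CPM. Grin1, its partner, stood at 105, 177, 91.7 and 115 CPM against 57.6 to 82.6 CPM, and its interval held the free RNA level at day 3. With the nucleus richest in Grin1 left out its interval was above the free RNA level in 0 of 4 libraries.

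Of 8 precursor members 2, 1 and 2 were called, against 9.4%, 9.08% and 8.16% of all genes. At day 1 Grin3a was 1.51 (1.14 to 2.00) times sham on 127 and 89 UMIs, and Grin1 1.68 (1.02 to 2.83) times on 43 and 27 UMIs. Neither was called at day 1 with TMM scaling, with the richest nucleus left out, in thinned nuclei, with the mean over nuclei or at 2-fold. Grin2a was 1.66 (1.21 to 2.31) times sham at day 3 and 0.467 (0.265 to 0.791) times at day 7, and Grin2b 0.579 (0.369 to 0.89) times at day 7. At day 7 both stood at the free RNA level, 100 against 120 CPM and 160 against 160 CPM. The day 7 direction of Grin2a turned with libraries merged and not integrated (log2 0.37), and that of Grin2b in thinned nuclei (log2 0.31). Gria4 was below sham on all 3 days, 0.714, 0.848 and 0.694 times, which is within 1.5-fold.

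Oligodendrocyte-like nuclei (322, 161, 439 and 255) had Gria4 as the member farthest above its free RNA level in CPM. It stood at 392, 204, 426 and 319 CPM against 81.3, 58.7, 123 and 72.9 CPM of free RNA, whereas Gria2 stood at 302, 289, 424 and 326 CPM against 232, 234, 341 and 234 CPM. The day 1 library was the low one, at 0.519 (0.417 to 0.642) times sham, lower in 3 of 3 clusters and at 0.528 times with sham cluster weights. In thinned nuclei its log2 ratio was -0.48 in place of -0.95. Of 8 members 1, 3 and 1 were called, against 10.2%, 8.88% and 8.95% of all genes.

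At day 3 Gria1, Grin2a and Grin2b were higher than sham in these nuclei, 1.84 (1.43 to 2.38), 1.68 (1.31 to 2.17) and 2.10 (1.67 to 2.66) times. Gria1 and Grin2a were higher in 2 of 3 clusters and lower in 1, with cluster ratios from 0.445 to 9.92 and from 0.932 to 27.1, and Grin2b was higher in 3 of 3. With sham cluster weights the ratios were 1.57, 1.48 and 1.89, so Grin2a no longer reached 1.5. With libraries merged and not integrated the log2 ratios of Grin2a and Grin2b were 0.23 and 0.58, both under 1.5-fold. In sham Grin2b stood at its free RNA level, 128 against 127 CPM, and with free RNA subtracted its log2 ratio was 5.53. The day 3 library also had the highest estimated free RNA share in this class, 25.3% against 17.8% in sham, and the free RNA levels of the 3 genes were 155, 151 and 214 CPM against observed 205, 194 and 269 CPM. The richest of 439 nuclei held 23.5% of the Gria1, 16.3% of the Grin2a and 14.1% of the Grin2b UMIs at day 3. With that nucleus left out each of the 3 intervals held the free RNA level. Over all alternatives, free RNA subtraction among them, the day 3 log2 ratios ranged from 0.65 to 1.34 for Gria1 and from 0.23 to 0.95 for Grin2a. Beyond that subtraction the part of free RNA in these values was not tested. At day 7 Grin3a was called lower on 10 UMIs against 25.

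Microglia-like nuclei (84, 39, 180 and 89) had intervals of Gria1, Gria4, Grin2a and Grin2b above the free RNA level in all 4 libraries and of no other member. With the nucleus richest in each gene left out this held for none of the 4. Gria4 then stood at 150 against 209 CPM at day 7, where that nucleus held 53.4% of its UMIs, Grin2a at 256 against 291 CPM at day 7, Gria1 at 292 against 306 CPM at day 7, and Grin2b at 389 against 471 CPM in sham. Their markers Csf1r (323 to 685 CPM) and Inpp5d (1116 to 1663 CPM) stood beside neuronal Slc17a7 at 74.1 to 106 CPM. Gria2 stood at 950, 741, 534 and 642 CPM, and free RNA would give 860, 610, 521 and 670 CPM. Of 8 members 2, 7 and 5 were called, all lower than sham, against 15.8%, 18% and 14.5% of all genes in either direction and 7.21%, 7.6% and 6.65% lower. At day 3 these were Gria1 (0.539), Gria2 (0.563), Gria3 (0.533), Gria4 (0.533), Grin1 (0.311), Grin2a (0.611) and Grin3a (0.239). With libraries merged and not integrated 2 members were called at day 3, and Gria1, Gria2, Gria3 and Grin2a turned to log2 ratios of 0.21, 0.48, 0.30 and 1.19. With the mean over nuclei 1 was called, and in thinned nuclei 0 were. The estimated free RNA share of the class was 66.1% in the sham library and 47.9%, 38.7% and 46.6% in the others. With free RNA subtracted the day 3 log2 ratios were -2.28 for Gria1, -3.67 for Gria2 and -2.06 for Gria4. They were -5.90 for Grin1, -1.93 for Grin2a and -4.85 for Grin3a. Gria3 at day 3 lay under its free RNA level, 225 against 238 CPM. Beyond this subtraction the part of free RNA in these calls was not tested. The median log2 ratio of the 8 members was -0.38, -0.90 and -0.73 on the 3 days, and that of all genes 0.07, 0.12 and 0.07. Grin3a in the sham library was 33 UMIs, 81.8% of them in 1 nucleus.

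**Figure D5:**
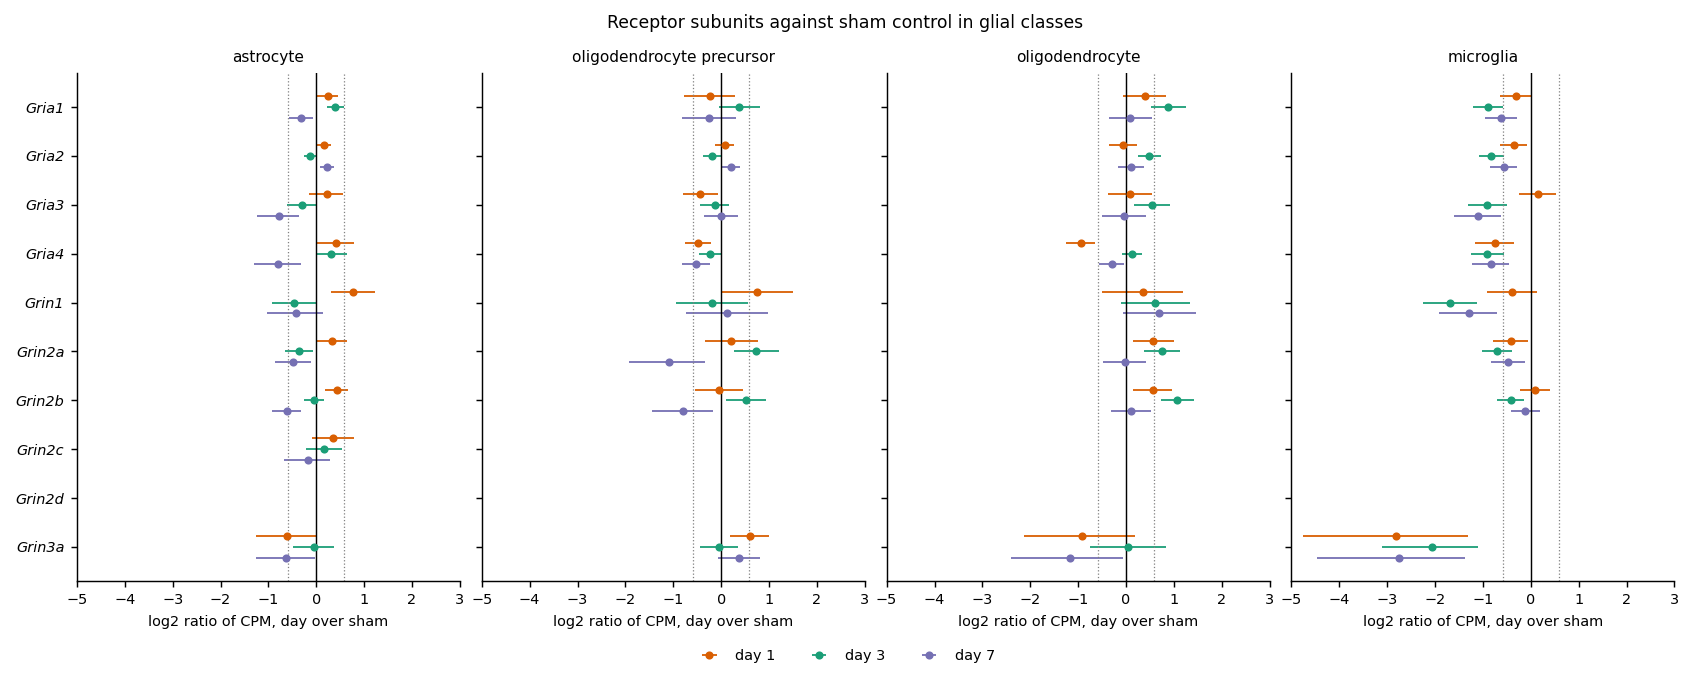
Log2 ratio of CPM of each day over sham (x axis) for each member in the 4 glial classes, with exact 95% counting intervals and dotted lines at 1.5-fold in either direction, members under 20 UMIs left out. Of 8 members 7 lie beyond the left line in microglia-like nuclei at day 3, and Gria4 lies beyond it in oligodendrocyte-like nuclei at day 1.

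Endothelial, vascular leptomeningeal and ependymal cell-like nuclei were fewer. The largest library was that of 74 endothelial-like nuclei at day 3, with Gria2 at 313, Gria1 at 227, Gria4 at 218 and Gria3 at 172 CPM against free RNA levels of 271, 124, 97.8 and 124 CPM, and the Gria2 interval held its free RNA level. In 48 leptomeningeal-like nuclei at day 3 Gria4 stood at 464 and Gria1 at 459 CPM, with 79.5% of the Gria1 UMIs in 1 nucleus. In sham endothelial-like nuclei the largest count was 40 UMIs of Gria2, 259 CPM against a free RNA level of 162 CPM, and Grin1 had 0 UMIs.

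The auxiliary list held 17 genes, such as the Cacng genes for the TARPs and the Shisa genes that shape gating and trafficking, the scaffold list 23 genes, and the editing list Adar and Adarb1. In glutamatergic-like neurons 2, 1 and 2 of 17 auxiliary genes were higher and 0 lower on days 1, 3 and 7, against 5.24%, 2.23% and 3.8% of all genes higher and 3.03%, 3.28% and 4.45% lower, and 0, 0 and 0 of 23, 22 and 22 scaffold genes were higher and 0, 0 and 1 lower. Nptx2, an activity-regulated pentraxin that clusters AMPA receptors, was higher on all 3 days, 15.6, 14.2 and 14.2 against 9.22 CPM, with free RNA levels of 4.51 to 7.50 CPM. Homer1, a scaffold that links glutamate receptors, was lower at day 7, 216 against 346 CPM (0.626, 0.582 to 0.673). Adarb1 stood at 134, 106, 122 and 124 CPM in these neurons, and neither editing enzyme was called in any of the 3 neuron classes on any day.

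In striatal projection neuron-like nuclei, where 5.03%, 2.33% and 2.82% of all genes were higher and 2.11%, 3.28% and 3.86% lower on days 1, 3 and 7, the auxiliary calls were Cacng5, higher at day 1 on 30 and 12 UMIs, and Cacng7 (0.479) and Olfm2 (0.490), lower at day 3. Of the scaffold genes Camk2d, a calcium and calmodulin dependent kinase, was 2.24 (1.82 to 2.77) times sham at day 1, 109 against 48.8 CPM, and Homer2 and Shank1 were higher with it. Camk2g was lower at day 3 (0.561), and Homer2 was higher at day 7 (1.82). In interneuron-like nuclei Shisa6 (1.84) and Grip2 (1.66) were higher at day 3, against 2.6% of all genes, and 0 list genes were called on the other 2 days.

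In precursor-like nuclei 4 of 10 auxiliary genes were lower at day 1 and 3 of 11 at day 3, against 3.97% and 3.47% of all genes, with a median log2 ratio of -0.52 and -0.54 against 0.08 and 0.03 over all genes. Cacng4, a TARP known from these cells, stood at 890 CPM in sham and at 545 CPM (0.612, 0.490 to 0.762) and 449 CPM (0.504, 0.413 to 0.615) at days 1 and 3, and Cacng2 and Cacng8 were lower on both days. At day 7 0 of 8 were lower and Shisa9 was higher (1.79), against 4.54% and 3.62% of all genes. Adarb1 was higher at day 1 (1.88, 1.02 to 3.56, 32 and 18 UMIs), as were 2 of 17 scaffold genes, Homer2 and Grip1, against 5.43% of all genes, with Homer1 lower. At day 3 the scaffold genes Dlg4 and Camk2a were higher, 2 of 20 against 5.62%, and at day 7 Homer1 was lower, 1 of 16.

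In astrocyte-like nuclei, where 4.07%, 4.44% and 4.5% of all genes were higher and 6.47%, 5.54% and 6.93% lower on days 1, 3 and 7, Shisa9 was lower at day 1 (0.566) and day 7 (0.399), from 298 CPM to 169 and 119 CPM, and the day 7 calls, 2 of 9 auxiliary and 4 of 21 scaffold genes, were all lower, with Dlgap2 lowest (0.347). The other calls there were Olfm2 and Shank2, higher at day 1, and Nptxr, Olfm1 and Grip1, higher at day 3 with Cacng3 lower. In oligodendrocyte-like nuclei 2 of 14 auxiliary and 6 of 20 scaffold genes were higher at day 3, against 5.61% of all genes, led by Shank1 (3.29) and Shisa6 (2.74), with Homer3 lower, in the library with most free RNA. At day 1 2 of 11 auxiliary genes were higher and 1 of 20 scaffold genes, Dlg4, was lower, against 4.84% and 5.36% of all genes, and at day 7 1 of 20 scaffold genes was higher, against 3.34%. In microglia-like nuclei 4 of 10 auxiliary and 6 of 18 scaffold genes were lower at day 3, alongside the receptor genes themselves, against 7.6% of all genes, 1 of 7 and 5 of 17 were lower at day 7, against 6.65%, with Shisa9 higher, and at day 1 1 of 8 auxiliary genes, Gsg1l, was lower, against 7.21%, and Pick1 and Adar were higher, against 8.59%.

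The genes most like each member were sought by the correlation of log2(CPM + 1) over 42 pairs of a class and a library, as a description, since the pairs share libraries and free RNA. Grin1 was closest to Syt1 (r = 0.956) and Erc2 (0.954), genes of the presynaptic release site, and Grin2a was closest to the same 2 genes (0.95 and 0.944). Grin2b was closest to Syt1 (0.941) and Kcnip4 (0.939), Gria2 to Dclk1 (0.9495) and Ppp2r2b (0.923), Gria3 to Csmd1 (0.933) and Prkce (0.926), Gria1 to Robo2 (0.907) and Fam65b (0.90), and Gria4 to Ppfia2 (0.908) and Gm16083 (0.904). The more restricted members had looser matches or other classes of genes: Grin3a Dner (0.892) and Nxph1 (0.838), and Grin2d Ablim3 and Grip1os2 (both 0.826).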

How the data were processed

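The authors isolated nuclei from frozen pooled hemispheres over sucrose cushions, made 10x Chromium 3′ libraries and counted reads with STAR 2.7.3a (STARsolo, full gene with introns, GRCm38, GENCODE vM8). The deposited matrices hold raw UMI counts per gene and barcode, with empty droplets. The strand setting is not given in the sources used here.

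Nuclei were called with an emptyDrops-type test (ambient limit 1000 UMIs, 10000 draws, false discovery rate 0.001) and 144 of 7919 were removed as doublets by Scrublet-type scores, at 0.8% per 1000 nuclei. The nuclei were integrated and clustered in Seurat 5.3.0 (sctransform 0.4.2, 30 components, resolution 0.8, 31 clusters) without the receptor and list genes. Classes were named from marker lists, the scoring rule was revised after the clusters were seen, and 6 clusters with 580 nuclei stayed unnamed. Counts were summed by class and library (total UMIs per library 23285489 to 42963698). Calling and the ratio rule were tested on simulated data. Python 3.11.15, scipy 1.17.1, R 4.3.3 and, for an alternative scaling, edgeR 4.0.16 were used.

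The members and lists were chosen with earlier results of these data known. All 10 members are named, list genes where called (up to 3 at each end per class and day), and the 2 likest genes of each member, except those of Grin2c, which are not reported here. Positions come from GENCODE vM21. Alternatives varied the nuclei, doublets, clustering, scaling, depth, free RNA, single nuclei and thresholds.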

Additional observations from a re-analysis of the deposited data

Results flagged for a closer look

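Some members passed the call rule in opposite directions in 2 classes of nuclei within the same comparison with sham. With 1 library a group the difference between classes was not tested, and the values are log2 ratios of CPM, day over sham. Grin3a was the member with most such pairs. At day 1 it was higher in oligodendrocyte precursor-like nuclei (0.59) and lower in striatal projection neuron-like (-0.91), astrocyte-like (-0.62) and microglia-like nuclei (-2.81). At day 3 Grin3a was higher in interneuron-like nuclei (0.86) and lower in striatal projection neuron-like (-0.60) and microglia-like nuclei (-2.06). At day 7 Grin3a was again higher in interneuron-like nuclei (0.90) and lower in striatal projection neuron-like (-0.71), astrocyte-like (-0.63), oligodendrocyte-like (-1.18) and microglia-like nuclei (-2.75). The microglia values rest on a sham count in which 81.8% of 33 UMIs lay in 1 nucleus, and the day 3 value turned to 0.32 with more doublets removed. In the sham count of striatal projection neuron-like nuclei 31.1% of 74 UMIs lay in 1 nucleus. The lower values also turned in striatal projection neuron-like nuclei at day 3 (0.13, with the mean over nuclei) and in astrocyte-like nuclei at day 7 (0.11, in thinned nuclei).

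Gria1 was higher in oligodendrocyte-like nuclei at day 3 (0.88) and in glutamatergic-like neurons at day 7 (0.76), and lower in microglia-like nuclei on the same days (-0.89 and -0.62). Grin2a at day 3 was higher in oligodendrocyte-like (0.75) and precursor-like nuclei (0.73) and lower in microglia-like nuclei (-0.71). The microglia values at day 3 turned positive under some settings, Grin2a with libraries merged and not integrated (1.19), with the mean over nuclei (0.12) and in thinned nuclei (0.030), and Gria1 with libraries merged (0.21). The estimated share of free RNA was higher at day 3 than in sham in oligodendrocyte-like and precursor-like nuclei (25.3% against 17.8%, and 29.5% against 23.8%) and lower in microglia-like nuclei (38.7% against 66.1%). With free RNA subtracted the microglia values at day 3 were -2.28 for Gria1 and -1.93 for Grin2a. Beyond that subtraction the part of free RNA in these values was not tested.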

How the results depend on the processing

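No paired analysis was possible because each group was 1 library. Depth limited what could be called: 181 of the 210 combinations of member, class and day had at least 20 UMIs over both libraries, and no call was made in the others. Over the 21 comparisons 38 members were called, and 10 to 59 under the alternatives, for which no share of all genes is given. The log2 ratio of Gria1 in glutamatergic-like neurons at day 7 (0.76) ranged from 0.53 to 0.82, that of Gria4 in oligodendrocyte-like nuclei at day 1 (-0.95) from -1.09 to -0.48, and that of Grin3a in interneuron-like nuclei at days 3 and 7 (0.86 and 0.90) from 0.32 to 0.92 and from 0.43 to 0.97. The lowest Gria1 value and the day 7 Grin3a minimum came with nuclei thinned to 1000 UMIs, and the day 3 Grin3a minimum with clusters weighted as in sham, an alternative chosen after the data were seen. Causes were not tested unless the setting itself gives them.

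Counts of called members that changed by over 1.5 times are given as the new count. With a 2-fold threshold, there was 1 in striatal projection neuron-like nuclei at day 7, oligodendrocyte-like at days 3 and 7, precursor-like at day 7 and microglia-like at day 1, microglia-like nuclei had 2 at day 3 and 3 at day 7, and the other comparisons had 0. With at least 50 UMIs there was 1 in striatal projection neuron-like nuclei at day 7 and in microglia-like at day 1, and 0 in oligodendrocyte-like at day 7. With edgeR TMM scaling, glutamatergic-like at day 3 and astrocyte-like at day 1 had 1, astrocyte-like at day 7 and oligodendrocyte-like at day 1 had 2, and striatal projection neuron-like at day 3 and precursor-like at day 1 had 0. With nuclei over 2000 UMIs, astrocyte-like and precursor-like at day 1 had 1, oligodendrocyte-like had 2 at day 1 and 5 at day 3, and microglia-like 6 at day 1.

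With free RNA subtracted, glutamatergic-like at day 3 had 2, striatal projection neuron-like at day 7 had 1, astrocyte-like had 4, 3 and 7 on the 3 days, oligodendrocyte-like 4 at day 1 and 2 at day 7, and microglia-like 6 at day 1. The sham Gria2 share was then 36.3% in glutamatergic-like, 35.2% in striatal projection neuron-like, 20.4% in interneuron-like, 59.4% in astrocyte-like, 16.5% in oligodendrocyte-like and 11.1% in microglia-like nuclei, and the Grin2a share 53.1%, 96.1% and 57.2% in glutamatergic-like, oligodendrocyte-like and microglia-like nuclei.

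With libraries merged and not integrated, glutamatergic-like had 0 at day 1 and 2 at day 3, projection neurons of the striatum 0 at day 3 and 1 at day 7, astrocyte-like 0 at day 7, precursor-like 1 at days 1 and 7, and microglia-like 2 at day 3 and 1 at day 7. Directions turned for Grin2a in precursor-like nuclei at day 7 (log2 0.37), in microglia-like nuclei at day 3 for Gria1 (0.21), Gria2 (0.48), Gria3 (0.30) and Grin2a (1.19), and at day 7 for Grin1 (0.069). The sham Gria2 share of astrocyte-like nuclei was 63.1%, and the Grin2a share 41.96% in striatal projection neuron-like and 32.1% in astrocyte-like nuclei.

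With the mean of UMI fractions over nuclei, there was 1 in glutamatergic-like at day 3, striatal projection neuron-like at day 7, astrocyte-like at days 1 and 7 and microglia-like on all 3 days, 2 in precursor-like at day 3, and 0 in striatal projection neuron-like at day 3, interneuron-like at days 3 and 7 and precursor-like at days 1 and 7. Directions turned for Grin3a in striatal projection neuron-like nuclei at day 3 (0.13) and for Gria2 (0.017) and Grin2a (0.12) in microglia-like nuclei at day 3. The sham Gria2 share was 38.5% in glutamatergic-like and 61.0% in astrocyte-like nuclei, and the Grin2a share 39.7%, 44.0% and 28.0% in striatal projection neuron-like, interneuron-like and astrocyte-like nuclei.

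With nuclei thinned to 1000 UMIs, there was 1 in astrocyte-like at day 1, precursor-like at day 7 and microglia-like at days 1 and 7, and 0 in glutamatergic-like at day 7, striatal projection neuron-like on all days, interneuron-like at days 3 and 7, astrocyte-like at day 7, precursor-like at day 1 and microglia-like at day 3. Directions turned for Grin2d in glutamatergic-like neurons at day 1 (-0.63), Grin3a in astrocyte-like nuclei at day 7 (0.11), Grin2b in precursor-like nuclei at day 7 (0.31) and Grin2a in microglia-like nuclei at day 3 (0.030). The sham Gria2 share was 36.6% in glutamatergic-like, 23.3% in interneuron-like and 61.3% in astrocyte-like nuclei, and the Grin2a share 51.2%, 38.9% and 25.8% in glutamatergic-like, striatal projection neuron-like and astrocyte-like nuclei.

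With the nucleus richest in a gene left out, striatal projection neuron-like had 0, 0 and 1, astrocyte-like 1 at day 1 and 2 at day 3, oligodendrocyte-like 5 at day 3, precursor-like 0, 2 and 0, and microglia-like 1 at day 1. With 2 times the share of doublets removed, glutamatergic-like had 1 at day 3, striatal projection neuron-like 0 at day 3 and 1 at day 7, astrocyte-like 4 at day 1 and 2 at day 7, oligodendrocyte-like 4 at day 1, precursor-like 1, 2 and 1, and microglia-like 1 at day 1 and 3 at day 7. Grin3a in microglia-like nuclei at day 3 then turned (0.32), and the sham Gria2 share of astrocyte-like nuclei was 57.9%.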
